A study of Mus musculus with 45 samples.

Results

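Male mouse embryonic stem cells (ESCs) were followed from day 2 to day 3 of differentiation from serum and LIF. They lowered a cluster of zinc finger genes on chromosome 4 and some genes of the naive state, though not Nanog. Epithelial keratins and some oxygen-responsive genes rose, together with a few Notch targets and a few regulators of endoderm and neural tissue. This interval was examined in 6 of the 45 RNA-seq libraries, namely the 3 libraries of day 3 and the 3 of day 2 that started from cells kept in SL (serum plus leukemia inhibitory factor, LIF), chosen by their sample titles and paired by differentiation course. All 6 came from E14tg2a, a male ESC line of the 129/Ola background with a wild type genotype, so each course is a repeat of the same line under another condition. In the EB course cells formed embryoid bodies in suspension in serum without LIF. In the EpiSC course they were grown attached in serum-free N2B27 medium with Fgf2 and ActivinA (FA). In the Neural course they were grown attached in N2B27 alone. The same courses at day 2.5 (3 libraries) and the same days from cells kept in 2iL (2 kinase inhibitors plus LIF, 6 libraries) served for comparison.

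ESCs in SL fluctuate around naive pluripotency, the state of the preimplantation epiblast, which is held by a network of transcription factors that includes Nanog, Esrrb and Zfp42. Once LIF is withdrawn the cells pass through a formative state that resembles the early postimplantation epiblast, with Otx2, Fgf5 and the de novo DNA methyltransferases, and then take on germ layer fates set by Nodal, BMP, Wnt and FGF signals. In female cells the same exit is accompanied by Xist, the long non-coding RNA that silences an X chromosome.

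Values are given as CPM (read counts relative to library size, scaled with edgeR's TMM normalization factors), which do not correct for gene length and are therefore compared only within a gene. The libraries held 15101710 to 37071102 counts on genes, and the day 2 EB library was the deepest. In these 6 libraries 3 counts corresponded to 0.0809 to 0.199 CPM. There was 1 library per course and day, so the courses took the place of replicates. Apart from the test of course slopes, p-values express how evenly a change recurred over 3 conditions rather than over separate cultures. An exact sign-flip test over 3 pairs cannot fall below p = 0.25 (two-sided), so single genes were judged only in the fit across all genes, edgeR's quasi-likelihood test with course as a block and an adjusted p of 0.05 as the threshold. Fold changes are fitted log2 values of day 3 over day 2. Pluripotency transcripts were present in all 6 libraries, with Pou5f1 (Oct4) at 123 to 473 CPM and Lin28a at 425 to 827 CPM, and so were those of extraembryonic endoderm, with the endocytic receptor Cubn at 419 to 1492 CPM and its adaptor Dab2 at 175 to 463 CPM. The listed fibroblast genes summed to 9.51 to 21.8 CPM and the blood and endothelial genes to 16 to 34.0 CPM, with the globin Hba-x at 0 in all 6. In bulk RNA, fewer cells of a type and less RNA per cell cannot be told apart.

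Of 14252 genes tested, 3477 (24.4%) passed the threshold, 1798 (12.6%) higher and 1679 (11.8%) lower at day 3, and the median log2 change of all genes was 0.01. Most changes were small, with a median size of 0.63 on the log2 scale among the genes called and 848 of them over 2-fold, 536 higher and 312 lower. The 3 courses shared the direction for 3467 of the 3477 genes. The test favors changes that recur over the courses, so this count is a description only. Counts in the gene lists below are to be read beside the shares of all genes, 12.6% higher and 11.8% lower. The CPM of the day 2 and day 3 libraries did not overlap for 3900 genes (27.4%), called or not. Among genes with a mean of at least 5 CPM, 338 changed over 2-fold in the EB course, 458 in the EpiSC course and 612 in the Neural course. Without the EpiSC pair 1707 genes were called, and 1571 of these were among the 3477.

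The lowest adjusted p of the whole comparison belonged to genes of 1 region of chromosome 4. Rex2, a KRAB zinc finger gene, stood at 534 CPM in the EB library, 627 in the EpiSC library and 658 in the Neural library of day 2, and at 148, 191 and 179 CPM on day 3. The highest day 3 library lay far below the lowest of day 2, a fall of 3.49-fold (log2 change -1.80 ± 0.09 SE, adjusted p = 8.7e-05). Its neighbor Zfp600 went from 455, 531 and 576 CPM to 122, 158 and 151 CPM (-1.84 ± 0.09, adjusted p = 8.7e-05), and Gm13247 from 166, 194 and 191 CPM to 38.2, 52.6 and 53.3 CPM (-1.94 ± 0.09, adjusted p = 8.7e-05). Gm13242 and Gm13145 had the same adjusted p, with log2 changes of -1.80 and -1.79.

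These genes lie in a tandem cluster that was delimited after their values were seen, from Gm13225 to Gm13157 at chr4:145510759-147809788 (GRCm38). Of its 34 listed genes 25 passed the filter on low counts, and 22 of the 25 were lower and none higher, where 11.8% of all tested genes were lower. The median log2 change of the 25 was -1.53, against 0.01 for all genes. The 3 genes that did not pass the threshold, Gm13166, Gm26624 and Gm20707, are annotated as long intergenic non-coding RNAs, and a further lincRNA of the cluster, Gm16211, fell by 0.95 (adjusted p = 0.014). Summed over the 25 genes, the cluster took 3420, 4093 and 4295 CPM in the EB, EpiSC and Neural libraries of day 2 and 1149, 1444 and 1283 CPM on day 3. The median change per course was -1.48, -1.35 and -1.56, and no gene of the cluster differed between courses. Leaving out the EB, the EpiSC or the Neural pair left 22, 22 and 23 genes lower. The genes are close copies of one another, so reads may have been divided among them and the single values are less certain than the sum.

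**Figure D1:**
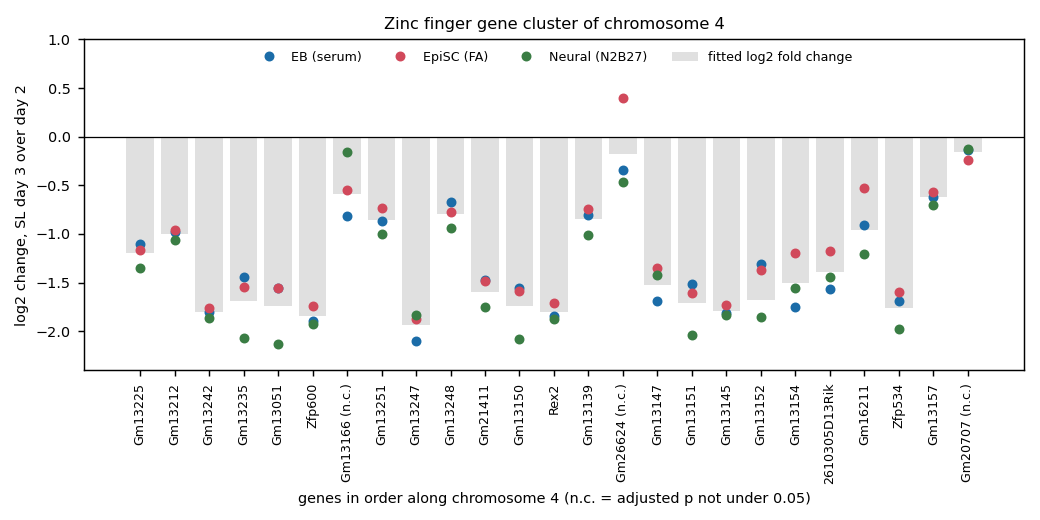
Log2 change from day 2 to day 3 (vertical axis) for the 25 tested genes of the chromosome 4 cluster in genomic order, with the fitted change as gray bars and 1 colored point per course (CPM + 0.5). The bars of the called genes reach -0.62 to -1.94 and all their points lie below 0, whereas the 3 genes marked n.c. (not called) have bars from -0.16 to -0.59.

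The stretch just upstream of 3 members is shown because it holds a run that some genes of the cluster share. It gives the 150 bases that end 1 base before the RefSeq start (GRCm38.p6), 5′ to 3′ on the gene's own strand, with the run shared by the 3 in capitals. Rex2 is at chr4:147021700-147021849 on the plus strand, Zfp600 at chr4:146156677-146156826 on the plus strand and Zfp534 at chr4:147702632-147702781 on the minus strand.
Rex2: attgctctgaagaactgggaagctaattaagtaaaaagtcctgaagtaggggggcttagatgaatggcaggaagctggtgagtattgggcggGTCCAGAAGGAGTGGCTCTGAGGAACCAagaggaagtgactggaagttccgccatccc
Zfp600: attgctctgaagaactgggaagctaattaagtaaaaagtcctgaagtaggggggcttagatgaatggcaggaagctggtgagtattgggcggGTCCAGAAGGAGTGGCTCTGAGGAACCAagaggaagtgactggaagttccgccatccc
Zfp534: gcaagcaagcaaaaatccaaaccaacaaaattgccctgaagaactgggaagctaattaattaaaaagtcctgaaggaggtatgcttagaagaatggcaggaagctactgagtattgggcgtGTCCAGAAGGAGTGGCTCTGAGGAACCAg

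The run of 28 bases, searched on both strands in the 250 bases upstream of 32851 RefSeq starts, was found for 8 (0.0244%), each of a different gene. All 8 lie in the cluster (Rex2, Zfp600, Zfp534, Gm13242, Gm13051, Gm13151, Gm13152 and Gm13154), and all 8 were lower at day 3. The cluster has 34 listed genes, and 22 were lower, so the run is not general to it. Gm13247 and Gm13145, which also fell, were not among the 8. The run was taken from 3 members that fell, so the direction of the 8 is a description only. The Rex2 and Zfp600 windows are the same throughout, and the match describes the copies and not a site.

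Among other genes with a mean of at least 5 CPM and 1 direction in all courses, the steepest falls were those of Cphx3, Cphx2 and Cphx1, homeobox genes expressed in the early embryo. Cphx1 went from 3.20, 12.7 and 13.3 CPM to 0.682, 1.27 and 2.73 CPM (-2.59 ± 0.26, adjusted p = 0.0015), and the 3 genes, which are near-identical neighbors on chromosome 14, carry nearly the same counts. Ttn, encoding the muscle protein titin, fell from 32.8, 40.3 and 198 CPM to 5.22, 15.6 and 26.3 CPM (-2.32 ± 0.27, adjusted p = 0.0025). Ryr3, a ryanodine receptor, dropped by 2.23 (adjusted p = 0.00069), Capn3, a calpain protease, by 2.12 (adjusted p = 0.00099) and Morc1, which represses transposons in germ cells, by 2.08 (adjusted p = 0.00019). Morc1 was the most even of these, at 44.1, 34.5 and 31.8 CPM on day 2 and 9.90, 7.95 and 8.01 CPM on day 3. The remaining falls among the first 10 were Gm10324 (-2.02), Zfp640 (-2.02) and Gm10323 (-1.98), predicted or zinc finger genes that may also share reads with copies.

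The largest rises by the same rule were Gm17535, Gm10719 and Gm11168, predicted genes near the start of chromosome 9, and 1 library carried them. Gm17535 measured 0.507, 0.665 and 0.882 CPM on day 2 and 0.829, 119 and 3.08 CPM on day 3, so that its log2 change of 4.38 (adjusted p = 0.027) became 1.32 (adjusted p = 0.077) without the EpiSC pair. On day 2.5 the high library was the Neural one, at 133 CPM, with the EB library at 0.951 CPM and the EpiSC library at 4.86 CPM. Without the EpiSC pair Gm10719 had an adjusted p of 0.079 and Gm11168 of 0.25.

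Rises shared by the courses followed. Zfp521, a zinc finger factor of early neural commitment, rose from 1.68, 1.93 and 1.60 CPM to 7.75, 8.84 and 34.0 CPM (2.96 ± 0.41, adjusted p = 0.0040), and all day 3 libraries lay above all day 2 libraries. Krt19, an epithelial keratin, rose from 3.84, 2.33 and 0.772 CPM to 21.3, 14.1 and 6.41 CPM (2.64 ± 0.18, adjusted p = 0.00046). F5, coagulation factor V, rose by 2.42 (adjusted p = 0.00046) and Krt7, a further keratin, by 2.01 (adjusted p = 0.0034), again without overlap of the days. The other 3 of the first 10 were uneven over the courses. Igfbp5, which binds insulin-like growth factors, stayed at 6.59 and 6.78 CPM in the EB course and reached 19.8 CPM in the EpiSC and 82.2 CPM in the Neural course (2.25 ± 0.64, adjusted p = 0.038). Meis1, a homeobox partner of Hox proteins, went from 0.694, 1.60 and 8.38 CPM to 1.36, 4.71 and 58.8 CPM (2.12, adjusted p = 0.0058). Afp, alpha-fetoprotein of the yolk sac endoderm, went from 17.4, 3.79 and 1.10 CPM to 103, 4.13 and 9.49 CPM (2.07, adjusted p = 0.015), and its adjusted p was 0.10 without the EB pair.

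**Figure D2:**
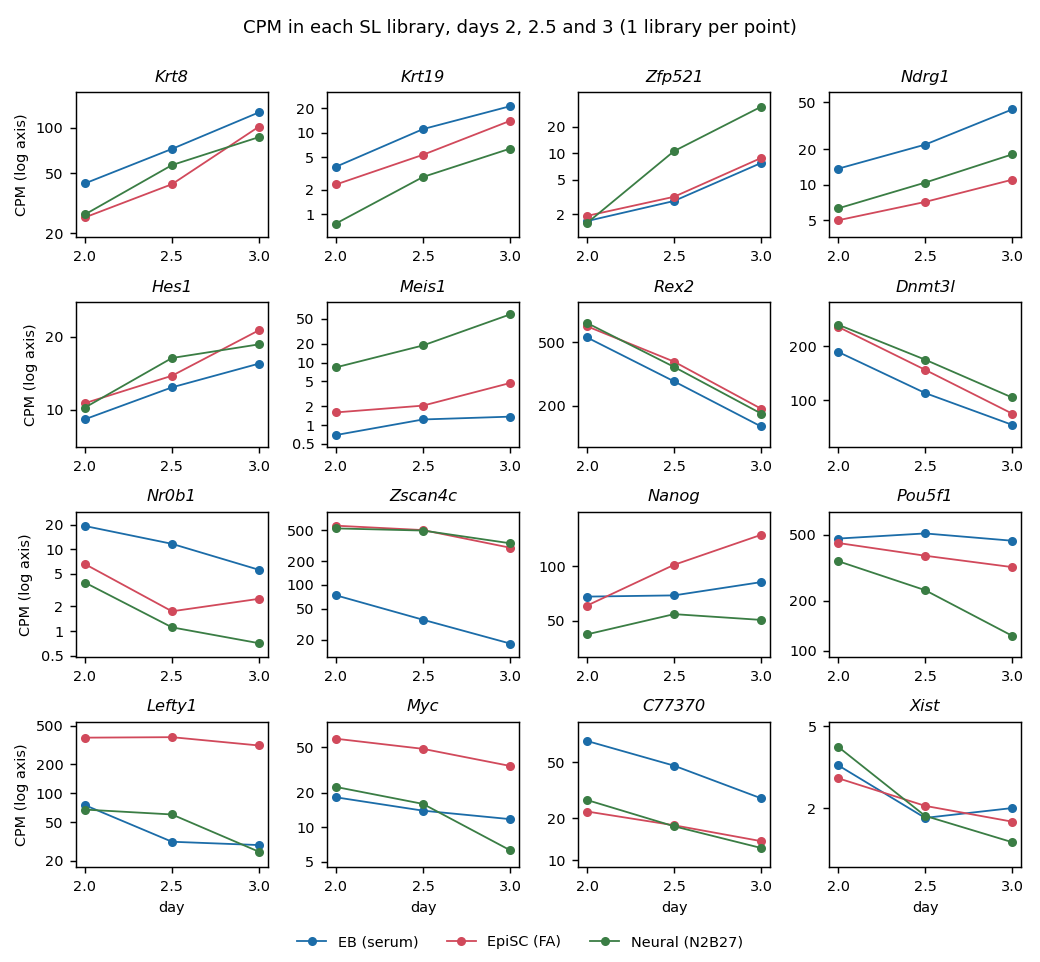
CPM on a log axis (vertical) against day (horizontal) for 16 genes, with 1 line per course and 1 library per point. Krt8, Krt19, Zfp521, Ndrg1, Hes1 and Meis1 are higher at day 3 than at day 2 in every course and Rex2, Dnmt3l, Nr0b1, Zscan4c, Lefty1, Myc, C77370 and Xist lower, while Nanog increases most in the EpiSC course and Pou5f1 drops mainly in the Neural course.

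Of 17 naive pluripotency genes tested, 8 were lower and 1 higher, with a median log2 change of -0.60. Nr5a2, an orphan nuclear receptor that can act upstream of Pou5f1, went from 10.9, 5.92 and 7.23 CPM to 3.02, 2.16 and 1.66 CPM (-1.80 ± 0.20, adjusted p = 0.0024). Nr0b1 (Dax1), another nuclear receptor of the naive network, fell by 1.78 (adjusted p = 0.0029) and Jam2, an adhesion molecule, by 1.48 (adjusted p = 0.0068). Zfp42 (Rex1), a common reporter of the naive state, went from 41.8, 32.0 and 39.0 CPM to 18.4, 19.3 and 19 CPM (-0.98 ± 0.12, adjusted p = 0.0031), with the 3 courses ending at almost the same level. Klf2, a Krüppel-like factor, fell by 1.11 (adjusted p = 0.013). Fbxo15, Tdh and Zfp57 fell by 0.92, 0.86 and 0.60 (adjusted p = 0.0044, 0.0032 and 0.020), the last with 0.060 when the EB pair was left out.

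Nanog went the other way. It measured 68.0, 60.7 and 42.2 CPM on day 2 and 81.7, 148 and 50.7 CPM on day 3, and the increase was largest in the EpiSC course (0.62 ± 0.19, adjusted p = 0.049, and 0.19 without the EpiSC pair). The following naive factors were not called. Esrrb stood at 50.8, 15.7 and 19.7 CPM and then at 30.0, 28.9 and 12.1 CPM (-0.21, adjusted p = 0.62, but -0.71 and 0.0093 without the EpiSC pair), Klf4 changed by 0.06 (adjusted p = 0.86) and Tfcp2l1 by 0.26 (adjusted p = 0.16, and 0.036 without the Neural pair). Prdm14 was too low to be tested, with 26, 10 and 4 counts on day 2 and 2, 5 and 4 on day 3.

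Of 14 genes of general pluripotency 6 were lower and none higher (median -0.61). Dppa2, a chromatin factor of pluripotent cells, had 88.0, 152 and 135 CPM on day 2 and 39.8, 56.3 and 41.5 CPM on day 3 (-1.41 ± 0.11, adjusted p = 0.00063). Its partner Dppa4 fell by 0.71 (adjusted p = 0.0049), Dppa5a by 1.15 (adjusted p = 0.0022), L1td1 by 0.84 (adjusted p = 0.015) and the Nodal co-receptor Tdgf1 by 0.93 (adjusted p = 0.028). Pou5f1 did not pass (473, 445 and 346 CPM, then 459, 319 and 123 CPM, log2 change -0.65, adjusted p = 0.075, and 0.019 without the EB pair), nor did Sox2 (-0.29, adjusted p = 0.085, and 0.0091 without the Neural pair), and Sall4 and Lin28a had log2 changes of -0.07 and -0.05.

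Formative genes split. Of 17 tested, 5 were higher and 6 lower (median -0.11). Car4, a carbonic anhydrase, rose by 1.10 (adjusted p = 0.0027), Sox4 by 0.68 (adjusted p = 0.0086), Zic2 by 0.51 (adjusted p = 0.012) and Sall2 by 0.46 (adjusted p = 0.045, with 0.097 without the EB and 0.13 without the Neural pair). Fgf5, the standard marker of the postimplantation epiblast, had 54.0, 24.3 and 4.74 CPM on day 2 and 69.1, 34.3 and 5.22 CPM on day 3 (0.37, adjusted p = 0.045), which rose to 0.15 without the EB and 0.29 without the EpiSC pair. Against this, Tcf15 fell by 1.04 (adjusted p = 0.024), Grhl2, an opener of epithelial enhancers, by 0.81 (adjusted p = 0.0047), the Wnt effector Lef1 by 0.79 (adjusted p = 0.0048) and the POU factor Pou3f1 by 0.63 (adjusted p = 0.035, and 0.051 without the EpiSC pair). Otx2 measured 106, 19.7 and 14.3 CPM and then 141, 42.7 and 11.6 CPM (0.45, adjusted p = 0.16, but 0.72 and 0.0026 without the Neural pair).

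Among 10 genes that write, copy, read or remove DNA methylation, 5 were lower and 1 higher (median -0.27). Dnmt3l, the catalytically inactive cofactor of the de novo methyltransferases, went from 187, 258 and 265 CPM to 72.9, 84.3 and 104 CPM (-1.43 ± 0.09, adjusted p = 0.00035), and no day 3 library reached the lowest of day 2. Dnmt3a, a de novo enzyme, fell by 0.77 (adjusted p = 0.012), while Dnmt3b had 2553, 997 and 927 CPM and then 2746, 1056 and 633 CPM (-0.11, adjusted p = 0.60). The 5-methylcytosine oxidases went in different directions. Tet2 fell by 0.80 (adjusted p = 0.029), Tet1 by 0.52 (adjusted p = 0.044, and 0.12 without the EB or 0.069 without the Neural pair), and Tet3 rose by 0.42 (adjusted p = 0.037, and 0.070 without the EpiSC or 0.14 without the Neural pair). Uhrf1, which brings the maintenance enzyme to replicated DNA, fell by 0.28 (adjusted p = 0.048).

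**Figure D3:**
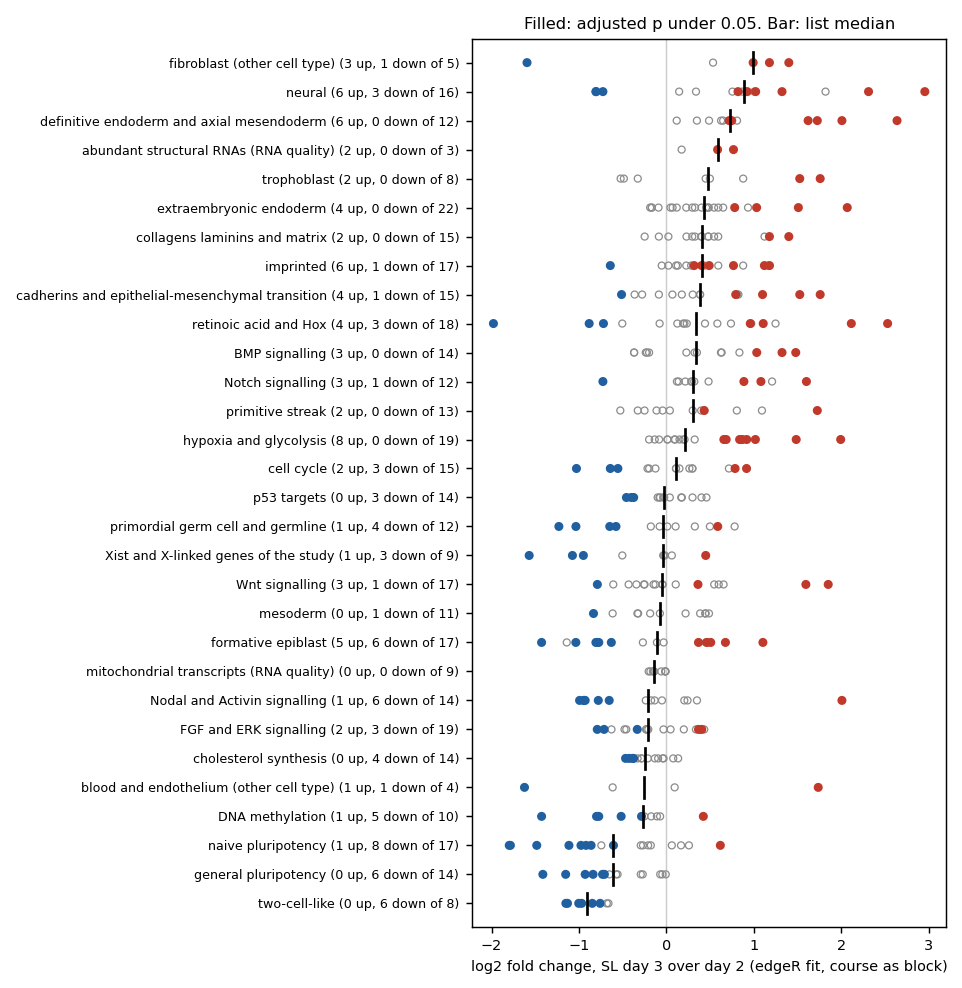
Log2 change of day 3 over day 2 (horizontal axis) for each tested gene of 30 gene lists, with called genes filled in red (higher) or blue (lower), other genes open and the list median as a bar. The lists are ordered by median, from the small fibroblast list and the neural list (0.89) at the top to naive and general pluripotency (-0.60 and -0.61) and the 2-cell-like list (-0.91) at the bottom.

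Of 14 genes of Nodal signaling tested, 6 were lower and 1 higher (median -0.20). Nodal had 39.0, 48.4 and 23.2 CPM on day 2 and 18.0, 43.0 and 6.94 CPM on day 3 (-0.95 ± 0.25, adjusted p = 0.030, and 0.090 without the EB pair). Its feedback inhibitors Lefty1 and Lefty2 fell by 0.99 (adjusted p = 0.016) and 0.94 (adjusted p = 0.018). Lefty1 was much higher in the EpiSC course, which contains ActivinA, at 377 and then 313 CPM, than in the EB course (75.5, then 29.2 CPM) or the Neural course (67.9, then 24.9 CPM). Gdf3, a related ligand, fell by 0.78 (adjusted p = 0.0099) and Skil, a brake on Smad proteins, by 0.65 (adjusted p = 0.022). The secreted antagonist Cer1 was the member that rose, from 3.20, 6.98 and 0.717 CPM to 9.55, 37.4 and 2.79 CPM (2.01 ± 0.21, adjusted p = 0.0018).

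Of 14 BMP pathway genes 3 were higher and none lower (median 0.34), beside 12.6% and 11.8% of all genes. The ligand Bmp7 rose from 1.39, 2.66 and 3.70 CPM to 2.83, 6.93 and 10.4 CPM (1.32, adjusted p = 0.0050), Bmp2 by 1.03 (adjusted p = 0.016, and 0.070 without the EB or 0.066 without the EpiSC pair) and the target Id3 by 1.48 (adjusted p = 0.038). Of 17 Wnt genes 3 were higher and 1 lower (median -0.05), beside the same shares of all genes. The risers act against Wnt at the receptor or ligand. Rnf43, a ubiquitin ligase that removes Frizzled receptors, rose from 1.33, 0.598 and 0.386 CPM to 4.34, 2.67 and 1.36 CPM (1.85, adjusted p = 0.0048), and the secreted Sfrp1 went from 29.5, 26.1 and 19.1 CPM to 53.7, 67.8 and 114 CPM (1.60, adjusted p = 0.0083). The target Axin2 had a log2 change of 0.11 (adjusted p = 0.65). In the FGF list 2 of 19 were higher and 3 lower (median -0.21), near the shares of all genes (12.6% and 11.8%). Fgf4, the main FGF of ESCs, fell from 179, 68.0 and 36.3 CPM to 109, 49.0 and 17.9 CPM (-0.71, adjusted p = 0.0054), and Etv1, a transcription factor downstream of ERK, by 0.79 (adjusted p = 0.0049), whereas the receptor Fgfr1 rose by 0.40 (adjusted p = 0.022, and 0.092 without the EpiSC pair).

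A few Notch targets rose by like amounts in the courses. Of 12 genes tested 3 were higher and 1 lower (median 0.31), beside 12.6% and 11.8% of all genes. Hey1 had 4.08, 2.13 and 1.54 CPM on day 2 and 10.1, 6.42 and 6.23 CPM on day 3 (1.60 ± 0.21, adjusted p = 0.0034). Nrarp, a target that feeds back on the receptor complex, rose from 4.22, 4.99 and 3.86 CPM to 9.02, 10.2 and 8.18 CPM (1.08, adjusted p = 0.0048), and Hes1 went from 9.13, 10.6 and 10.2 CPM to 15.5, 21.3 and 18.6 CPM (0.89, adjusted p = 0.0043). For these 3 targets the days did not overlap. The ligand Dll1 fell by 0.73 (adjusted p = 0.0084).

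Keratins were among the most even rises. Krt8 (chr15:101996698-102004482) had 42.8, 25.5 and 26.6 CPM on day 2 and 127, 102 and 86.7 CPM on day 3, a rise of 3.39-fold (1.76 ± 0.10, adjusted p = 0.00029). Its partner Krt18, with which it forms the first filaments of simple epithelia, went from 63.9, 27.2 and 22.0 CPM to 157, 89.1 and 65.0 CPM (1.53 ± 0.10, adjusted p = 0.00046). They were the only risers in a trophoblast list of which 8 genes were tested and none was lower (median 0.47), and Cdx2, a defining trophoblast factor, had a log2 change of -0.33 (adjusted p = 0.57). Among 15 cadherin and epithelial-mesenchymal transition genes 4 were higher and 1 lower (median 0.38), with Krt8 and Krt18 again, the tight junction protein Cldn6 (0.79, adjusted p = 0.0084) and the repressor Zeb2 (1.10, adjusted p = 0.017) among the risers. Vim, the mesenchymal filament, fell by 0.51 (adjusted p = 0.026, and 0.067 without the EB or 0.055 without the EpiSC pair). E-cadherin (Cdh1) and N-cadherin (Cdh2) had log2 changes of -0.28 (adjusted p = 0.22) and 0.81 (adjusted p = 0.11).

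Germ layer genes moved in part. Of 12 genes of the definitive endoderm and axial mesendoderm, 6 were higher and none lower (median 0.73), namely Krt19 and Cer1, given above, Gsc, Cxcr4, Trh and Foxa2. Foxa2, a pioneer factor of endoderm and node, had 10.5, 8.44 and 5.90 CPM on day 2 and 16.7, 14.3 and 9.61 CPM on day 3 (0.72, adjusted p = 0.0098). Gsc, the organizer homeobox gene, had 36, 22 and 1 counts on day 2 and 49, 97 and 5 counts on day 3 (1.73, adjusted p = 0.0092, and 0.085 without the EpiSC pair). Cxcr4, a chemokine receptor, rose by 1.62 (adjusted p = 0.019) and Trh by 0.75 (adjusted p = 0.043, and 0.11 without the EpiSC pair). Sox17, a defining endoderm factor, had a log2 change of 0.65 (adjusted p = 0.093).

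Of 20 primitive streak genes listed, 13 were tested, 2 were higher and none lower (median 0.30), beside 12.6% higher and 11.8% lower among all genes. T (Brachyury) had 14, 31 and 9 counts on day 2 and 22, 42 and 13 on day 3, at most 2.67 CPM (0.81, adjusted p = 0.12). Eomes went from 36.3, 25.9 and 8.99 CPM to 52.0, 37.5 and 9.96 CPM (0.43, adjusted p = 0.032, and 0.11 without the EB or 0.17 without the EpiSC pair). Of 21 mesoderm genes 11 were tested and 1, Tek, was lower (median -0.07). Beside the same shares of all genes, 4 of 22 extraembryonic endoderm genes were higher and none lower (median 0.43). These were Afp, Apoa1 (1.51, adjusted p = 0.0068), Pth1r (1.03, adjusted p = 0.0092) and Apoe (0.78, adjusted p = 0.0084), while Gata4 and Gata6 had log2 changes of 0.48 (adjusted p = 0.073) and 0.12 (adjusted p = 0.57), and 10 of the 22 genes differed between courses. The sum over this list was 2935 to 5515 CPM on day 2 and 2906 to 7205 CPM on day 3, so the days overlapped.

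Of 27 neural genes 16 passed the filter, and 6 were higher and 3 lower (median 0.89). The list median was -0.08 in the EB course, 0.66 in the EpiSC course and 1.05 in the Neural course, and 6 of the 16 genes differed between courses. Without the Neural pair 3 were higher and 2 lower. Nes, the intermediate filament nestin, had 28.7, 53.7 and 36.8 CPM on day 2 and 68.1, 82.3 and 82.4 CPM on day 3 (1.02 ± 0.13, adjusted p = 0.0032), with no overlap. Irx3, a homeobox factor of the neural plate, went from 1.20, 2.06 and 5.52 CPM to 1.85, 5.34 and 18.1 CPM (1.32, adjusted p = 0.0098). Sox21 went from 0.534, 0.598 and 2.37 CPM to 0.439, 1.97 and 27.8 CPM (2.31, adjusted p = 0.031, and 0.25 without the Neural pair). Gbx2, a factor of the anterior hindbrain that ESCs also express, fell by 0.81 (adjusted p = 0.020). The neural plate factors Sox1 and Pax6 differed by course, with Sox1 at 2.19, 24.7 and 39.9 CPM on day 2 and 1.17, 42.4 and 128 CPM on day 3 (0.91, adjusted p = 0.084, and 0.0067 without the EB pair). Pax6 went from 14 to 44.8 CPM in the Neural course and had 2.64 and then 1.71 CPM in the EB course (0.87, adjusted p = 0.12, but 1.43 and 0.0055 without the EB pair).

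The list of retinoic acid and Hox genes also divided, with 4 higher and 3 lower of 18 (median 0.34). Its median was -0.08 in the EB course, -0.06 in the EpiSC course and 0.80 in the Neural course, and 6 of the 18 genes differed between courses. Of all 17 Hox genes tested 1 was higher and none lower, beside 12.6% and 11.8% of all genes. Cyp26a1, which breaks down retinoic acid, rose from 39.4, 32.8 and 9.21 CPM to 65.7, 71.9 and 18.4 CPM (0.96, adjusted p = 0.0025). Stra6, the cellular importer of retinol, rose by 1.11 (adjusted p = 0.022, and 0.16 without the Neural pair). Hoxa2 had 2, 12 and 29 counts on day 2 and 0, 37 and 260 on day 3 (2.53, adjusted p = 0.013, and 0.11 without the Neural pair). Stra8, a meiotic entry gene that responds to retinoic acid, fell from 17.9 to 2.35 CPM in the EpiSC and from 69.3 to 24.4 CPM in the Neural course and had 0.133 and 0.0975 CPM in the EB course (-1.98, adjusted p = 0.0049). The receptor Rarg fell by 0.72 (adjusted p = 0.033).

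X-linked genes were called in both directions. Of 527 tested, 63 were higher and 68 lower (24.9% called, beside 24.4% of all genes), and their median log2 change was -0.00. Among 9 tested genes that the study follows for X inactivation, 3 were lower and 1 higher (median -0.04). Xist had 121, 42 and 72 counts on day 2, 32, 27 and 28 on day 2.5 and 41, 27 and 23 on day 3. In CPM this was 3.23, 2.79 and 3.97 and then 2.00, 1.72 and 1.36, so that all day 3 libraries lay below all of day 2 (-0.95 ± 0.26, adjusted p = 0.033). With 2 courses the adjusted p was 0.055 without EB, 0.065 without EpiSC and 0.092 without Neural. Tsix, transcribed across Xist on the other strand, had 142, 34 and 49 counts and then 42, 39 and 28 (-0.50, adjusted p = 0.20), and the counting was strand-specific.

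Tsx, a neighbor of Xist on the X, fell from 4.51, 2.79 and 2.76 CPM to 1.27, 1.27 and 0.830 CPM (-1.57 ± 0.26, adjusted p = 0.0069). C77370 (Nexmif) fell from 71.2, 22.3 and 26.9 CPM to 27.7, 13.7 and 12.2 CPM (-1.07 ± 0.14, adjusted p = 0.0036), in each course though the days overlapped. The X-linked gene Wbp5 rose by 0.45 (adjusted p = 0.011). Rlim, the ubiquitin ligase that promotes Xist, had a log2 change of -0.03 (adjusted p = 0.84) and Ftx, a non-coding activator of Xist, of -0.02 (adjusted p = 0.93). Jpx was under the filter, with 11, 4 and 15 counts on day 2 and 7, 4 and 13 on day 3.

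Genes of the 2-cell-like state, a rare state of ESC cultures named after the 2-cell embryo, had the lowest median of all lists (-0.91), with 6 of 8 lower and none higher. Their levels differed far more between courses than between days. Zscan4c, a telomere factor of that state, had 73.8, 571 and 527 CPM on day 2 and 17.9, 299 and 341 CPM on day 3 (-1.15 ± 0.23, adjusted p = 0.013). Zscan4d and Zscan4f fell by 1.0 (adjusted p = 0.023) and 1.13 (adjusted p = 0.016), Usp17la by 0.97 (adjusted p = 0.014), Tmem92 by 0.85 (adjusted p = 0.013) and Zfp352 by 0.76 (adjusted p = 0.033). Without the EpiSC pair the last 3 had an adjusted p of 0.051, 0.052 and 0.15. Reads may be divided between the 3 Zscan4 genes, which are close copies, and their upstream sequences are shown for that likeness (150 bases before the RefSeq start, GRCm38.p6, 5′ to 3′ on the gene's strand, with their common run of 41 bases in capitals). Zscan4c is at chr7:11005595-11005744 on the plus strand, Zscan4d at chr7:11166149-11166298 on the minus strand and Zscan4f at chr7:11397765-11397914 on the plus strand.
Zscan4c: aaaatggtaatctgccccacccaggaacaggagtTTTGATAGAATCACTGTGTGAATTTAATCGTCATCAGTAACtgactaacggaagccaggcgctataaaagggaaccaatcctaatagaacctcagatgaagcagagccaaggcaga
Zscan4d: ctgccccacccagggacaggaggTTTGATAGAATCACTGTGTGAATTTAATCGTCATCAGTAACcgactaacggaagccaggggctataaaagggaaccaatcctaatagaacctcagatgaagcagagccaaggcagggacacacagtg
Zscan4f: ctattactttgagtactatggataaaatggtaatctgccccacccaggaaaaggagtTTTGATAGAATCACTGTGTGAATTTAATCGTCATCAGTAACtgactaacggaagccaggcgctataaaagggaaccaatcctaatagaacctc
This run lay upstream of 3 of the 32851 RefSeq starts (0.0091%), those of the 3 genes shown.

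Of 12 germline genes 4 were lower and 1 higher (median -0.03). Dazl, an RNA-binding protein of germ cells, fell from 12.9, 21.6 and 22.7 CPM to 5.56, 8.78 and 9.79 CPM (-1.23 ± 0.12, adjusted p = 0.0017). Stk31 and Mael, both acting in the piRNA pathway, fell by 1.03 (adjusted p = 0.010) and 0.65 (adjusted p = 0.0050), Ifitm1 by 0.58 (adjusted p = 0.027), and the meiotic gene Sycp3 rose by 0.59 (adjusted p = 0.016).

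Genes that respond to low oxygen rose in part. Of 19 genes of hypoxia and glycolysis 8 were higher and none lower (median 0.21). Adm, the vasodilator adrenomedullin, rose by 1.99 (adjusted p = 0.0039). Ndrg1 had 13.6, 4.99 and 6.29 CPM on day 2 and 43.3, 11.0 and 18.0 CPM on day 3 (1.49 ± 0.14, adjusted p = 0.0014). The prolyl hydroxylases Egln3 and Egln1, which mark hypoxia-inducible factor for destruction, rose by 1.02 (adjusted p = 0.011) and 0.92 (adjusted p = 0.0040), Vegfa by 0.87 (adjusted p = 0.0050), the glucose transporter Slc2a3 by 0.84 (adjusted p = 0.0026), Ero1l by 0.68 (adjusted p = 0.0098) and Pfkfb3 by 0.66 (adjusted p = 0.040, and 0.21 without the EB pair). The glycolytic enzymes Pgk1, Ldha, Aldoa and Eno1 had log2 changes of 0.15, 0.19, 0.10 and 0.01 (adjusted p of 0.16 to 0.94). The median of the list was 0.59 in the EB course, 0.05 in the EpiSC course and 0.18 in the Neural course.

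In the cell cycle list 2 of 15 were higher and 3 lower (median 0.11), beside 12.6% and 11.8% of all genes. Myc fell from 18.2, 59.2 and 22.4 CPM to 11.7, 34.3 and 6.29 CPM (-1.03, adjusted p = 0.013) and cyclin E1 (Ccne1), which drives entry into S phase, from 188, 204 and 172 CPM to 133, 143 and 107 CPM (-0.55 ± 0.08, adjusted p = 0.0047). The inhibitor Cdkn1b (p27) rose from 35.3, 16.3 and 20.6 CPM to 58.6, 35.5 and 38.0 CPM (0.92 ± 0.11, adjusted p = 0.0029). The other riser, Mycl, went from 46.7, 30.7 and 35.4 CPM to 51.8, 47.2 and 105 CPM, and was not called without the Neural pair. The inhibitor Cdkn1c fell by 0.64 (adjusted p = 0.021, and 0.058 without the EB or 0.072 without the EpiSC pair). Mki67, a proliferation marker, had a log2 change of 0.11 (adjusted p = 0.44). Of 14 p53 targets 3 were lower and none higher (median -0.03), where 11.8% of all genes were lower. Leaving out the EB, EpiSC or Neural pair left 2, 0 and 2 of them lower, and without Neural 2 were higher. Of 14 genes of cholesterol synthesis 4 were lower and none higher (median -0.25). For these, leaving out the EB, EpiSC or Neural pair gave 2, 1 and 7 lower.

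Of 17 imprinted genes 6 were higher and 1 lower (median 0.40). Igf2, a fetal growth factor, rose from 14.7, 13.2 and 50.1 CPM to 34.9, 30.4 and 105 CPM (1.18 ± 0.09, adjusted p = 0.00064), by a like amount in each course. Grb10, which restrains growth factor receptors, rose by 0.77 (adjusted p = 0.0025). Mest went from 131 to 153 CPM in the EB, from 172 to 389 CPM in the EpiSC and from 230 to 861 CPM in the Neural course (1.12, adjusted p = 0.022). Peg3, Meg3 and Rian rose by 0.49, 0.40 and 0.32 (adjusted p = 0.037, 0.039 and 0.032). Peg3 had 0.068 without the Neural pair, and Meg3 0.073 without the EB and 0.23 without the EpiSC pair. Cdkn1c fell by 0.64 (adjusted p = 0.021, and 0.058 without the EB or 0.072 without the EpiSC pair).

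Markers of other cell types were mostly at low levels, apart from those of extraembryonic endoderm. Of 9 fibroblast genes 5 were tested, 3 higher and 1 lower (median 0.99), and the sum over the list did not overlap between days, at 9.51 to 13.9 CPM on day 2 and 16.4 to 21.8 CPM on day 3, where Col1a1 reached 4.03 CPM. Of 10 blood and endothelial genes 4 were tested. Pecam1, which ESCs also express, fell from 25.7, 23.5 and 21.2 CPM to 11.8, 6.61 and 5.10 CPM (-1.62, adjusted p = 0.0025), and Gata1 rose to at most 4.53 CPM (1.74, adjusted p = 0.024, and 0.11 without the EB pair). None of 9 mitochondrial transcripts was called (median -0.14), and mitochondrial reads made up 1.26 to 2.15% of the counts. Of 3 structural RNAs the nuclear Malat1 and Neat1 rose by 0.59 (adjusted p = 0.019) and 0.77 (adjusted p = 0.031), with 0.22 and 0.075 without the EpiSC pair. The part of these in the other changes was not tested.

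Few of the changes passed within a single step of the interval. With the 3 libraries of day 2.5 added, 275 of 14465 genes (1.9%) were called from day 2 to day 2.5, 133 higher and 142 (0.982%) lower, and 389 (2.69%) from day 2.5 to day 3, 193 higher and 196 (1.35%) lower. The steps share the day 2.5 libraries. Of the 3477 genes called over the full day, 275 were also called in the earlier step, 386 in the later step, 99 in both and 2915 in neither. Of the 1798 genes higher over the day 1769 had a positive fitted change in both steps, with medians of 0.34 and 0.38, and of the 1679 lower 1655 had a negative one in both, with medians of -0.22 and -0.28. These genes were selected by their change over the day in libraries that the steps also use, so the signs are a description only. Without the EpiSC course the steps gave 33 and 13 genes.

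The zinc finger cluster fell at both steps, by a median of 0.68 and then 0.81 over its 25 genes, with 18 lower in each. Rex2 passed through 284, 377 and 349 CPM on day 2.5 (-0.85, adjusted p = 0.00040, and then -0.96, adjusted p = 0.00018). Dnmt3l fell by 0.73 and then 0.70 (adjusted p = 0.0012 and 0.0020), and Krt8 rose by 0.87 and then 0.90 (adjusted p = 0.0053 and 0.0058). Hey1 passed in the earlier step only (1.25, adjusted p = 0.0075, and then 0.35, adjusted p = 0.24), as did Tet2 (-0.88, adjusted p = 0.037, and then 0.09, adjusted p = 0.81). Igf2 and Slc2a3 passed only in the later step (Igf2 0.40, adjusted p = 0.17, and then 0.78, adjusted p = 0.017, and Slc2a3 0.23, adjusted p = 0.41, and then 0.60, adjusted p = 0.044). Whether the steps of a gene differ was not tested. Xist had its decrease in the earlier step without passing there (-0.81, adjusted p = 0.098, and then -0.14, adjusted p = 0.77).

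The courses were compared by their slopes over days 2, 2.5 and 3, in log2 a day. Of 14465 genes 365 (2.52%) differed, and 251 of these were steepest in the Neural course, 64 in the EB course and 50 in the EpiSC course. Between pairs of courses, 469 genes differed between EB and Neural, 125 between EpiSC and Neural and 25 between EB and EpiSC, and 103 of the 365 were also called over the day. Without the Neural course 73 genes differed.

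All 10 genes with the smallest p had their highest slope in the Neural course. Crabp1, a retinoic acid binding protein, went from 13.2 through 114 to 580 CPM in the Neural course, from 6.12 through 11.0 to 15.1 CPM in the EpiSC course and from 3.82 through 4.92 to 4.29 CPM in the EB course (slopes of 5.37, 1.28 and 0.20 log2 a day, adjusted p = 2.1e-07). Crabp2, its paralog, reached 139 CPM in the Neural course, against 23.8 CPM in EB and 10.3 CPM in EpiSC (adjusted p = 1.6e-05). Igfbp5 was steep in both serum-free courses, at 3.77 in Neural and 3.04 in EpiSC, beside 0.03 in EB (adjusted p = 1.6e-05). Ptn, a neurite-promoting growth factor, had slopes of 3.56 in Neural, 0.93 in EpiSC and -0.25 in EB (adjusted p = 8.4e-05). The others were Fgf15, Id2, an inhibitor of helix-loop-helix factors, the semaphorin receptor Plxna2, Ildr2, the adhesion molecule Nrcam and the integrin Itga8 (adjusted p = 8.4e-05 to 9.2e-05).

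**Figure D4:**
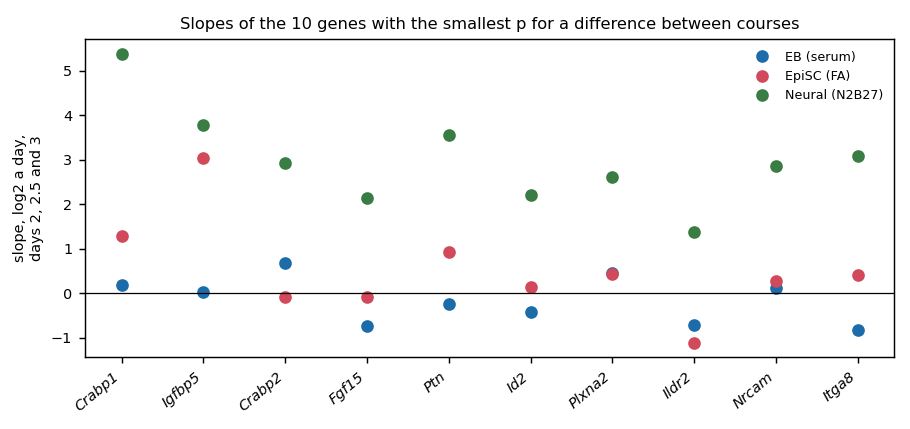
Slope over days 2, 2.5 and 3 in log2 a day (vertical axis) for the 10 genes with the smallest p for a difference between courses, with 1 point per course. The Neural point is the highest for each gene, and the EpiSC point joins it only for Igfbp5.

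The same test separated pluripotency and neural factors. Pou5f1 had slopes of -0.04 in EB, -0.47 in EpiSC and -1.47 in Neural (adjusted p = 0.00099), and Sox1 of -1.05, 0.79 and 1.70 (adjusted p = 0.00088). Nanog (0.26, 1.30 and 0.28, adjusted p = 0.0072) and Esrrb (-0.78, 0.92 and -0.68, adjusted p = 0.013) were highest in the EpiSC course. Mest (0.23, 1.19 and 1.92, adjusted p = 0.00020) and Zfp521 (2.24, 2.32 and 4.15, adjusted p = 0.033) were steepest in the Neural course.

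Few genes were called as changing differently from SL than from 2iL. A test of medium by day over 12 libraries called 67 of 14969 genes (0.448%), 4 higher and 63 lower from SL, and 57 of the 67 had a positive change from 2iL and a negative one from SL. The 10 with the smallest p were Gm20765, Gm21304, Gm4340, Gm6763, Gm21293, Gm21312 and Gm8764, near-identical predicted genes of chromosome 10, together with Usp17lc, Gm21761 and Tmem92. Gm20765 (chr10:104185533-104188000) had 114, 1037 and 1049 CPM on day 2 and 50.1, 537 and 709 CPM on day 3 from SL, while from 2iL it had 53.2, 19.8 and 23.7 CPM and then 309, 90.7 and 82.4 CPM. It fell by 0.89 from SL and changed by 2.21 from 2iL, a difference of -3.10 (adjusted p = 0.0026).

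Zscan4c showed the same crossing, from 31.9, 13.4 and 19.2 CPM to 143, 48.0 and 40.5 CPM in 2iL (log2 change 1.73 from 2iL and -1.17 from SL, difference -2.90 ± 0.40, adjusted p = 0.023), and 4 of the 8 genes of the 2-cell-like list were called here. The zinc finger cluster had no gene called, with medians of -1.72 from 2iL and -1.53 from SL. Rex2 had 2442, 2314 and 2280 CPM on day 2 and 654, 533 and 408 CPM on day 3 from 2iL (log2 change -2.14), and the difference from SL was 0.34 ± 0.15 (adjusted p = 0.58). Krt8 changed by 2.04 from 2iL and 1.76 from SL (adjusted p = 0.78 for the difference), and Xist, at 15.7, 11.2 and 13.9 CPM and then 1.48, 1.02 and 3.79 CPM from 2iL, by -2.86 and -0.95 (difference 1.90 ± 0.50, adjusted p = 0.25). Without the EpiSC course no gene passed for medium, with 580 genes at an unadjusted p under 0.05, and without the Neural course 13 did.

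**Figure D5:**
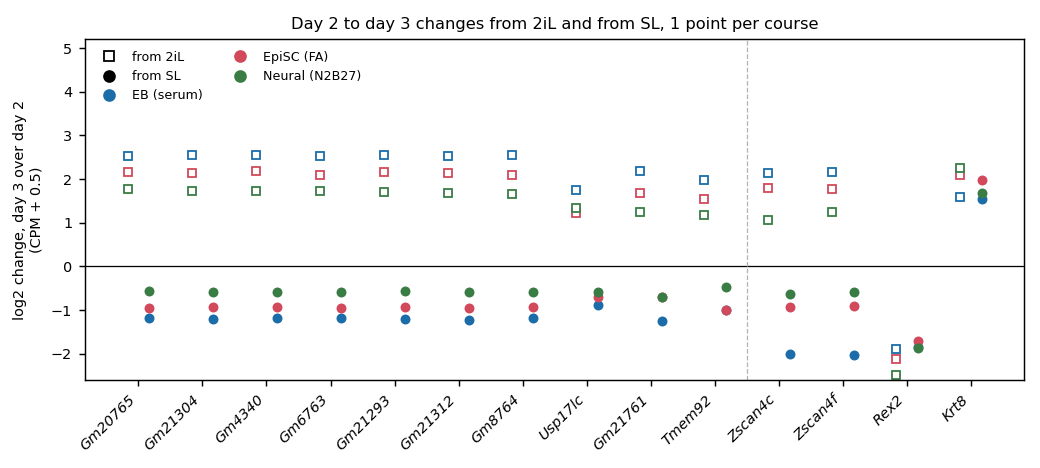
Log2 change from day 2 to day 3 on CPM + 0.5 (vertical axis), with open squares for the courses from 2iL and filled circles for those from SL, for the 10 genes with the smallest p for medium (left of the dashed line), Zscan4c, Zscan4f, Rex2 and Krt8. For the 10 genes and the Zscan4 genes every square lies above 0 and every circle below, while squares and circles of Rex2 lie together near -2 and those of Krt8 near 2.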

How the data were processed

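The deposited files hold raw counts per gene for 45 strand-specific RNA-seq libraries. The authors depleted ribosomal RNA, removed adaptors with TrimGalore, aligned reads by TopHat2 on GRCm38 using the gene models of Ensembl, and obtained strand-specific totals per gene from featureCounts, and these deposited counts are not normalized. No total or unassigned rows entered the fits. Depth per library sets the counting precision, and the floors cover counting error only. The SE values come from the quasi-likelihood fit and also hold the spread between courses, but not that between separate cultures.

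Days were compared in edgeR 4.0.16 (R 4.3.3) by quasi-likelihood with TMM factors, filterByExpr, course as a block and Benjamini-Hochberg adjustment over all genes tested. The pairing by course comes from the sample titles. Deviations of the same course on both days correlated at 0.81 (EB), 0.58 (EpiSC) and 0.68 (Neural) over 14252 genes, and those of different courses at -0.67 to 0.16. The deviations were taken from the mean of the 3 libraries of a day, so low values between different courses are partly built in. Steps and course slopes were fitted to 9 libraries (days 2, 2.5 and 3), the slopes with day as a number, and medium by day to 12. Per-course log2 changes use CPM + 0.5. The fits were run on simulated counts with known changes. These had the same dispersion for every gene and, for the day comparison, the same change in every course. They check that the fits work as written, and not the spread in these data. Positions come from GENCODE vM21 (34599 of 35372 genes found) and upstream sequences from RefSeq.

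Named genes were those of 30 lists that passed with the largest change, those the study names, the 10 largest rises and falls with a mean of at least 5 CPM and 1 direction in 3 courses, and the 10 smallest p for course and for medium. The members, lists and tests were chosen with earlier results of these data known, and the chromosome 4 cluster, the step, slope and medium genes given as further examples, and the list genes given without a call, such as Pgk1 or Cdh1, after their values were seen. Alternatives were DESeq2 1.42.0, RLE size factors, no filter, no block, leaving out each course, and fits to 9 or 21 libraries. The result of 1 list gene is not reported here.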

Additional observations from a re-analysis of the deposited data

Results flagged for a closer look

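The change from day 2 to day 3 differed between courses for 365 genes and between starting media for 67, by tests of the difference itself. The course test took its spread from departures from a straight line within each course, and not from separate cultures. Among named genes, the slope in the Neural course exceeded that in the EB course, in log2 a day, by 5.18 for Crabp1, 3.90 for Itga8, 3.86 for Sox21, 3.81 for Ptn, 3.74 for Igfbp5, 2.88 for Fgf15, 2.74 for Sox1, 2.74 for Nrcam, 2.62 for Id2, 2.44 for Id3, 2.33 for Pax6, 2.19 for Cxcr4, 1.91 for Zfp521, 1.90 for Meis1, 1.71 for Sfrp1, 1.70 for Mest, 1.43 for Mycl, 1.26 for Zeb2 and 0.76 for Peg3. In the Zscan4 genes it exceeded the EB slope by 1.57 (Zscan4d), 1.49 (Zscan4f) and 1.43 (Zscan4c), because they fell less in Neural than in EB cells.

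Neural minus EB was negative for Pou5f1 (-1.43), Rarg (-1.19), L1td1 (-0.95), Skil (-0.88) and Dnmt3a (-0.83). Against the EpiSC course the Neural slope was higher for Crabp2 (3.0), Afp (2.74), Ildr2 (2.49), Plxna2 (2.18) and Cdkn1c (0.80), and the difference was negative for Nodal (-1.56), Ttn (-1.54), Tdgf1 (-1.52), Otx2 (-1.38) and Tet1 (-0.88). The EpiSC slope was above the EB slope for Esrrb (1.69), Trh (1.40), Lefty2 (1.25) and Nanog (1.03), and EpiSC minus EB was -2.81 for Stra8, which had almost no counts in the EB course.

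For the medium, the log2 change from SL minus that from 2iL was -3.14 for Tmem92, -3.11 for Usp17la, -3.10 for Gm20765, -3.10 for Gm4340, -3.09 for Gm21304, -3.09 for Gm21293, -3.07 for Gm21312, -3.06 for Gm6763, -3.04 for Gm8764, -2.95 for Gm21761, -2.93 for Zscan4f, -2.90 for Zscan4c and -2.76 for Usp17lc. The Gm genes of chromosome 10 and the Zscan4 genes have close copies and may share reads with them, which was not tested.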

How the results depend on the processing

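The count for day 3 against day 2 depended on the pairing by course. Without the replicate block 37 genes passed in edgeR instead of 3477 (6 higher, 31 lower, with 2855 at an unadjusted p under 0.05), and in the 2 steps and the medium difference 0 passed (589, 824 and 358 at an unadjusted p under 0.05). Of 178 genes named, 151 lost their call without the block, 105 in a fit to 21 libraries from day 1 on, where 2154 genes passed, 24 in DESeq2 and 2 with RLE size factors. Direction was kept by all 178 in these settings. Leaving out a course gave 1707 to 3180 genes for the day comparison, 33 to 187 for the earlier step, 13 to 524 for the later step, 73 to 450 for the course difference and 0 to 55 for the medium difference. The lowest came without EpiSC, or, for the course difference, without Neural. Without EB the steps gave 146 and 76 genes and the course difference 180. Leaving out EB, EpiSC or Neural cost 27, 40 and 22 of the named genes their call. Among values that were not called, 5 turned sign: Dnmt3b (0.10) and Klf4 (-0.19) without Neural, and Esrrb (0.12), Ftx (0.10) and Rlim (0.054) without EB. Without the filter on low counts the steps gave 455 and 664 genes and the course difference 1224, and DESeq2 gave 586 for the later step and 172 for the medium difference, and the cause was not tested. Genes under about 5 CPM, Xist and Gsc among them, rest on few counts.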

Other observations

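The families below were picked after their values were seen, so their counts are a description only. The Slit guidance ligands were higher in 3 of 3 tested members. Slit3 had 6.32, 3.26 and 4.41 CPM on day 2 and 15.2, 17.6 and 11.4 CPM on day 3 (EB, EpiSC and Neural, log2 change 1.65 ± 0.23, adjusted p = 0.0043), while Slit1 and Slit2 rose by 1.56 and 0.82 (adjusted p = 0.033 and 0.029) from under 4 CPM, with 0.096 and 0.13 without the EpiSC and 0.078 and 0.080 without the Neural pair. Of 8 ephrin genes 5 were higher and none lower, with Efna1 and Efna5 both at 1.49 (adjusted p = 0.012 and 0.028) and Efnb3 at 0.98 (adjusted p = 0.031, and 0.063 without the EB or 0.12 without the Neural pair). Of 2 Robo receptor genes, which bind Slit ligands, 1 was lower and none higher, while of 16 integrin genes 2 were lower and none higher, beside 11.8% lower and 12.6% higher among all genes. Other families went both ways, with 2 higher and 1 lower of 19 semaphorin genes and 4 higher and 2 lower of 20 genes with a Dusp symbol.

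Anxa2, an annexin that links membranes to actin, went from 14.9, 7.91 and 9.76 CPM to 52.1, 21.4 and 32.3 CPM (1.68 ± 0.12, adjusted p = 0.00046), and 4 of 8 annexin genes were higher and none lower. The tropomyosin Tpm4 went from 62.1, 56.1 and 63.9 CPM to 130, 133 and 163 CPM (1.23 ± 0.09, adjusted p = 0.00046) and Tpm1 rose by 0.85 (adjusted p = 0.0027), with the days not overlapping for either. Of 9 genes with a Cldn symbol 4 were higher and none lower, among them Cldn7 (1.39, adjusted p = 0.0053), Cldn3 (1.18, adjusted p = 0.012, and 0.059 without the EB pair) and Cldn4 (0.85, adjusted p = 0.0084). Of 85 ribosomal protein genes, pseudogenes left out, none was higher and 6 were lower, beside 12.6% and 11.8% of all genes.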
